A study of Homo sapiens with 4 samples.

Results

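The VEGF family and a set of secreted angiogenic factors were examined in cultured U2OS cells, an established human osteosarcoma line, after a knockdown of GREM1. The set was fixed as 10 genes by name: the ligands VEGFA, VEGFB, VEGFC and PGF, the receptors FLT1 and KDR, the proteoglycan ESM1, the angiopoietin ANGPT1, the angiopoietin-like gene ANGPTL4 and the fibroblast growth factor FGF2. All 10 were found in the deposited table of 58735 genes, each as 1 row, and 9 of them passed the filter on low counts, as did 18442 genes in all. RNA-seq was done on 2 libraries labelled shGREM1 and 2 labelled shControl, and the 4 libraries held between 15492826 and 16353015 counts each. Both groups are U2OS cells, and nothing in the labels names the hairpin sequence, the vector, a clone or the time after knockdown. Whether libraries of 1 group are separate cultures is not in the labels, so the p-values reflect only the spread between these libraries, which may be technical. GREM1 itself had 1 and 1 counts in shGREM1 and 2 and 0 in shControl, so the knockdown could not be checked from these counts.

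The VEGF ligands are secreted dimers that act mainly on receptor tyrosine kinases of endothelial cells. VEGFA signals through KDR (VEGFR2) and binds FLT1 (VEGFR1) tightly. PGF and VEGFB bind FLT1 and not KDR, and VEGFC is the main ligand of FLT4 (VEGFR3) and the classical driver of lymphatic vessel growth. Tumour cells commonly release these ligands while carrying little of the receptors, and VEGFA is a textbook target of hypoxia-inducible factors (HIFs).

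Of 8 mesenchymal and osteoblast lineage markers of the labelled cell type, VIM, SPARC, FN1, COL1A1 and RUNX2 each had at least 1001 counts in every library. The other markers were low: ALPL had 64 and 118 counts in shGREM1 and 209 and 134 in shControl, the collagen gene COL1A2 had 20 and 15 counts in shGREM1 and 8 and 9 in shControl, and the osteoblast factor gene SP7 had 7 and 1 counts in shGREM1 and 0 and 0 in shControl. SPARC (log2 fold change 0.51, edgeR adjusted p = 0.0155) and COL1A1 (0.50, 0.0172) rose, and neither passed without shControl-1 (0.165 for SPARC and 0.0996 for COL1A1) or without shControl-2 (0.126 for SPARC and 0.166 for COL1A1). Of 12 endothelial markers 9 were tested, ROBO4 fell and 0 rose, and EMCN and CLEC14A were at 0 counts in all 4 libraries. PECAM1 had 120 and 160 counts in shGREM1 and 125 and 177 in shControl. VWF had 42 and 86 counts in shGREM1 and 94 and 59 in shControl. The summed level of the list ran from 214 to 243 CPM (library-scaled counts) in shGREM1 and from 204 to 208 CPM in shControl. Most of it was EGFL7, at a mean of 205 CPM in shGREM1 and 178 CPM in shControl. Of 8 epithelial and blood cell markers 3 were tested, with a list median log2 fold change of 0.68, and CD68 and HBB were at 0 throughout. KRT5 had 31 and 56 counts in shGREM1 and 27 and 25 in shControl, and did not pass. CDH1 had 39 and 22 counts in shGREM1 and 17 and 19 in shControl, and did not pass. The summed level of the 8 was 16.2 and 16.4 CPM in shGREM1 against 8.36 and 9.85 CPM in shControl. EPCAM, an epithelial adhesion gene, rose within that list to 11.1 CPM in shGREM1, against 5.60 CPM in shControl (log2 fold change 0.99, edgeR adjusted p = 0.0123, and 0.0912 without shControl-1). The part of these markers in the results below was not tested.

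Regions just upstream of 3 genes that fell, VEGFC, PGF and FLT1, are shown because they are the lower VEGF family genes with a sequence at hand. They come from RefSeq (GRCh38.p14), cover up to 250 bases before the RefSeq start, and stop short of any exon that GENCODE 29 gives the gene. The first 50 bases after that start lay in 0 of 2 GENCODE 29 transcripts of VEGFC, 1 of 8 of PGF and 3 of 9 of FLT1. The VEGFC start is therefore not one that GENCODE 29 gives. Capitals mark the NF-kB consensus, the only match there among 3 motifs capitalised when present, the others being ACGTG (the HIF core) and TGANTCA (AP-1).
VEGFC: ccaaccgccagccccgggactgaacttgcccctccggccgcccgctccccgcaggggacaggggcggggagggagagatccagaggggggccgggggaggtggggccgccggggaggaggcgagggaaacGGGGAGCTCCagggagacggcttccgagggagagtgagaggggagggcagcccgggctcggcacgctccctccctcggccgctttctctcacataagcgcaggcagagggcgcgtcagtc
PGF: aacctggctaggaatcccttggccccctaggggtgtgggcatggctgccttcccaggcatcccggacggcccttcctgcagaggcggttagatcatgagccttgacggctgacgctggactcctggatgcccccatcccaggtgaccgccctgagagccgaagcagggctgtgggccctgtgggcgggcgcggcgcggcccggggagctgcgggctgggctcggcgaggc
FLT1: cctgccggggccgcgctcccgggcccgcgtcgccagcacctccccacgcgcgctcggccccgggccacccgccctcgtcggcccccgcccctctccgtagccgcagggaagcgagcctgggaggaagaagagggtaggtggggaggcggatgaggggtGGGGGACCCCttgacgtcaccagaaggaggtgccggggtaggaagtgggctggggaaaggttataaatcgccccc
The VEGFC stretch is chr4:176792923-176793172, the PGF stretch chr14:74955785-74956014 and the FLT1 stretch chr13:28495146-28495378, each on the minus strand and written 5′ to 3′. Of the 10 members, 8 were matched to a RefSeq start in the table used here, VEGFA and ANGPT1 were not searched, and PGF had a second start within the transcript that was not searched. On either strand and in windows of 250 bases, the NF-kB consensus, 10 letters long, was found for 3 of the 8 members, VEGFC, FLT1 and KDR, against 9.96% of 35114 promoters. In FLT1 the same bases match on both strands. ACGTG was found for ESM1 and ANGPTL4, 2 of 8, against 18.5% of promoters, and TGANTCA for 0 of 8, against 6.57%. The GC box GGGCGG was found for 7 of the 8 members against 42.6%, the exception being ESM1. The ESM1 window had 47.6% G and C and met an annotated exon of ESM1 near its upstream end. TATAAA stood within 32 bases of the start in FLT1, ESM1 and ANGPTL4, against 10.7% of promoters with it anywhere in the window. The windows of VEGFB, PGF, FLT1, ANGPTL4 and FGF2 also reached exons of these genes, the furthest in FGF2, 123 bases before the start. No other overlap of motifs was assessed, and a match is a description of letters only.

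In shGREM1 against shControl, the ligand genes PGF and VEGFC, the receptor gene FLT1, the proteoglycan gene ESM1 and the angiopoietin gene ANGPT1 fell, and 0 members rose. The ligands with the most counts, VEGFA and VEGFB, and also FGF2 and ANGPTL4, did not pass the test. In bulk RNA, fewer cells with a transcript and less of it per cell cannot be told apart. The comparison asks which of these transcripts differ between knockdown and control cells. Of the 9 members tested, 5 were lower in edgeR's quasi-likelihood fit (threshold of 0.05 on the p adjusted by Benjamini-Hochberg across all genes tested). Of all genes tested, 7.69% passed, with 4.12% lower and 3.57% higher. FLT1 and ANGPT1 reached the count filter through shControl alone and would not have been tested at their shGREM1 levels. Their calls, and so the count of 5, are a description. The same holds for the unadjusted and voom counts below, which include both genes. At an unadjusted p under 0.05, 6 members were lower and 0 higher, where 12.1% of all genes tested were lower and 11.1% higher. DESeq2 called 3 members lower and 0 higher, beside 3.9% lower and 3.29% higher of the 15581 genes to which it gave an adjusted p. The voom fit called 5 members lower and 0 higher, beside 3.58% lower and 2.95% higher of all genes. These shares are also the background of the list counts below.

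**Figure D1:**
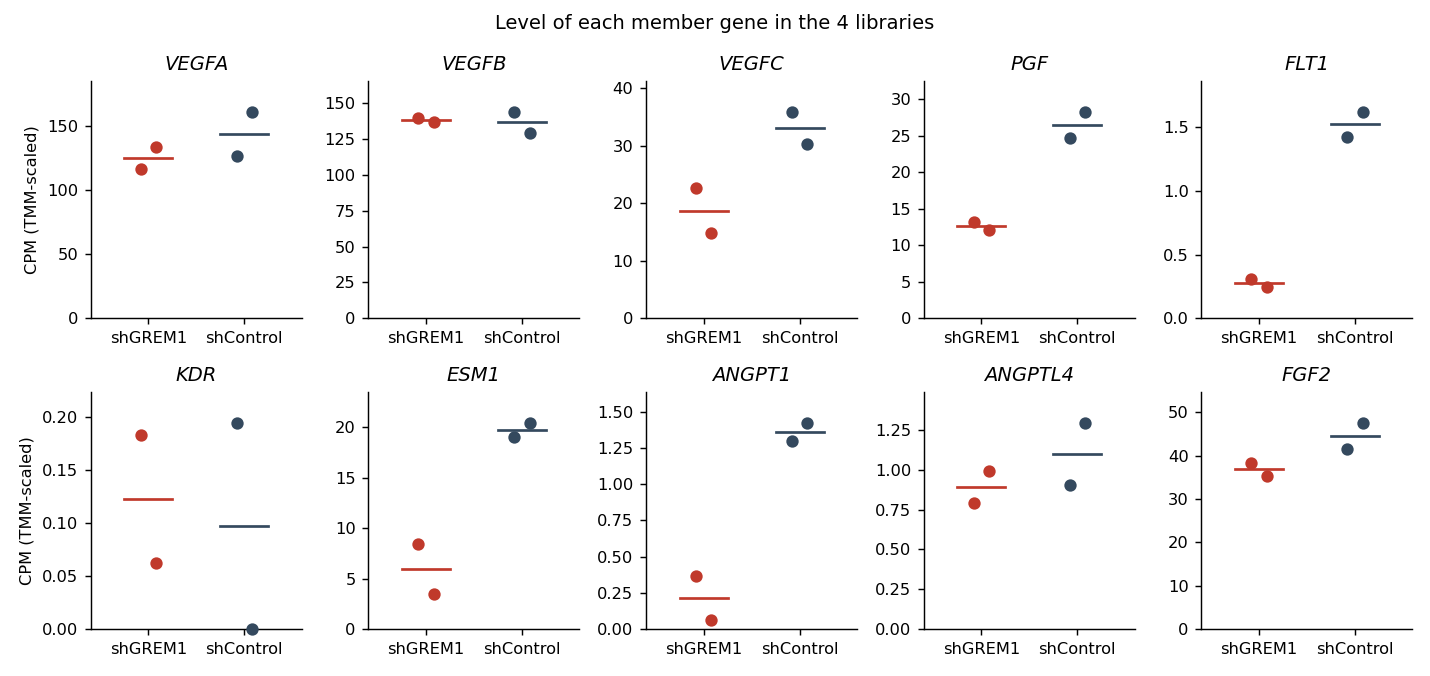
TMM-scaled CPM of the 10 member genes, 1 panel a gene with its own axis from 0. Each point is 1 library and the line is the group mean. The shGREM1 points lie below the shControl points for VEGFC, PGF, FLT1, ESM1, ANGPT1 and FGF2, and the groups overlap for VEGFA, VEGFB, ANGPTL4 and KDR.

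**Figure D2:**
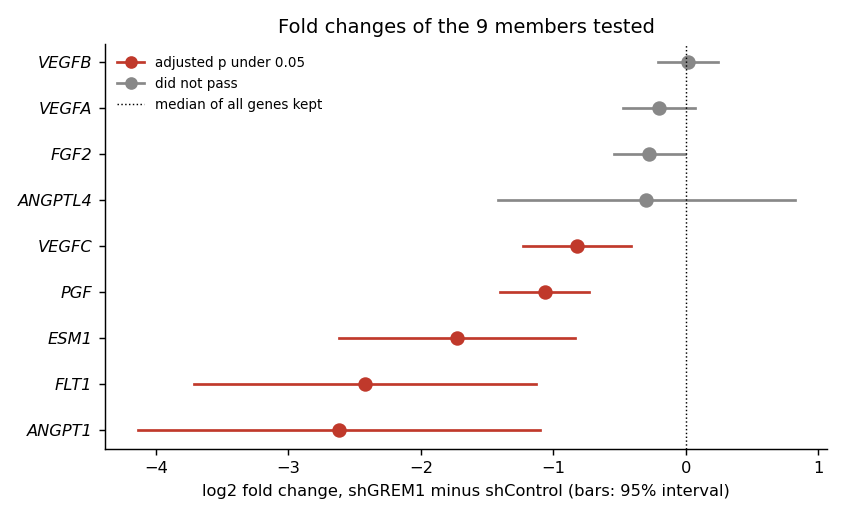
Log2 fold changes (shGREM1 minus shControl) of the 9 members tested, with 95% intervals from the edgeR fit. The 5 red points passed at an adjusted p under 0.05. Of these, FLT1 and ANGPT1 reached the count filter through shControl alone. VEGFB sits at 0.02 with the narrowest interval, and ANGPT1 at -2.62 has the widest.

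Of the ligand genes that fell, PGF had a smaller spread than VEGFC. PGF (ENSG00000119630, chromosome 14, 74941834 to 74955784, minus strand, GRCh38), which encodes placental growth factor, had 13.2 and 12.1 CPM in shGREM1, against 24.7 and 28.2 CPM in shControl. Both shGREM1 libraries lay below both shControl libraries, an order that 26.6% of all genes tested shared, while 27% had the opposite order. Its mean was 12.7 ± 0.743 CPM in shGREM1 and 26.5 ± 2.52 CPM in shControl (SD, n = 2 each). The log2 difference was -1.06 ± 0.16 (SE; edgeR adjusted p = 0.000905). In the fits without a single library, the PGF log2 fold changes ran from -1.17 to -0.97.

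VEGFC (ENSG00000150630, chromosome 4, 176683538 to 176792727, minus strand), the lymphatic growth factor gene, had 22.6 and 14.8 CPM in shGREM1, against 35.9 and 30.3 CPM in shControl. The groups did not overlap, although shGREM1-2 lay well below shGREM1-1. The log2 fold change was -0.82 ± 0.19 (SE; edgeR adjusted p = 0.0202). Without shControl-1 it was -0.70 and did not pass (edgeR adjusted p = 0.111). It was -1.16 without shGREM1-1 and -0.55 without shGREM1-2, and neither fit holds the spread within shGREM1.

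VEGFA and VEGFB were the most abundant members by counts and showed no difference that passed. VEGFA (ENSG00000112715, chromosome 6, 43770184 to 43786487, plus strand), the main endothelial mitogen of the family, had 117 and 133 CPM in shGREM1, against 126 and 161 CPM in shControl. The groups overlapped, and the log2 fold change of -0.20 had a 95% interval from -0.47 to 0.07 (edgeR adjusted p = 0.372). VEGFB (ENSG00000173511, chromosome 11, 64234538 to 64238793, plus strand), a FLT1 ligand, had 139.7 and 137 CPM in shGREM1, against 144 and 129 CPM in shControl. Its shGREM1 values lay between its shControl values, and the log2 fold change of 0.02 had a 95% interval from -0.21 to 0.25 (edgeR adjusted p = 0.951). The counts are per gene, so isoforms such as the splice forms of VEGFA or the soluble form of FLT1 cannot be told apart.

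Per length, VEGFB stood first among the ligands in every library. In TPM, a length-corrected level made with the gene lengths in the table, VEGFB averaged 326 in shGREM1 and 314 in shControl, far above the others. VEGFC averaged 28.0 TPM in shGREM1 and 48.6 TPM in shControl, and VEGFA 31.5 TPM in shGREM1 and 35.4 TPM in shControl. In shGREM1 the libraries of VEGFC (33.1 and 22.8 TPM) and VEGFA (28.6 and 34.5 TPM) overlapped, whereas in shControl VEGFC (52.1 and 45.0 TPM) lay above VEGFA (30.8 and 40.0 TPM). PGF averaged 7.71 TPM in shGREM1 and 15.8 TPM in shControl. The length used for VEGFA is 14431 bases, the union of all its annotated exons, against 1545 bases for VEGFB, so its TPM would be higher with the length of any single shorter transcript. Of the summed TPM of the 4 ligands, VEGFB made up 82.2% and 83.6% in shGREM1 and 77.1% and 74.7% in shControl. VEGFC made up 8.50% and 5.77% in shGREM1 and 12.3% and 11.2% in shControl, and PGF 2.01% and 1.92% in shGREM1 and 3.43% and 4.23% in shControl. VEGFA held 7.34% and 8.71% in shGREM1 and 7.25% and 9.94% in shControl, values that overlap. The size of each share depends on the lengths used.

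FLT1 and KDR were near the limit of detection. FLT1 (ENSG00000102755, chromosome 13, 28300344 to 28495145, minus strand) had 5 and 4 counts in shGREM1, against 22 and 25 in shControl. The libraries of a group were close and the groups did not overlap. Its log2 fold change was -2.42 ± 0.61 (SE; edgeR adjusted p = 0.0236). FLT1 reached the count filter through shControl alone, so this p-value and call are a description. The ratio of summed counts was 0.182, with an exact 95% interval of 0.0784 to 0.376 that covers counting error only. FLT1 did not pass without shControl-1 (edgeR adjusted p = 0.154), shControl-2 (0.188) or shGREM1-2 (0.0581). KDR (ENSG00000128052, chromosome 4, 55078259 to 55125595, minus strand), the main signalling receptor of VEGFA, had 3 and 1 counts in shGREM1, against 3 and 0 in shControl, and was left out by the count filter. The count of 0 allows up to 3.69 counts by the exact Poisson limit, and the ratio of summed counts, 1.27, had an exact interval of 0.214 to 8.65. A difference in KDR was not detectable at this depth. FLT4, the VEGFC receptor gene, was the most abundant VEGF receptor by CPM, at 14.1 and 16.7 CPM in shGREM1 against 20.1 and 18.7 CPM in shControl, without passing the test (-0.34 on the log2 scale, edgeR adjusted p = 0.235).

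ESM1 (ENSG00000164283, chromosome 5, 54977864 to 55022671, minus strand) encodes endocan, a secreted dermatan sulfate proteoglycan made by endothelial cells and by many tumours. It had 8.42 and 3.48 CPM in shGREM1, against 19.0 and 20.5 CPM in shControl. The shControl libraries were alike, and shGREM1-1 was more than 2-fold above shGREM1-2 (log2 ratio of shGREM1-2 over shGREM1-1 -1.27). The log2 fold change was -1.73 ± 0.37 (SE; edgeR adjusted p = 0.0432). Without shGREM1-1 it was -2.50 and without shGREM1-2 it was -1.23, and neither fit holds the spread within shGREM1. The call was lost with a mean CPM filter of 5 (edgeR adjusted p = 0.0621), among protein-coding genes only (0.0583), and when shControl-1 (0.278) or shControl-2 (0.23) was left out.

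ANGPT1 (ENSG00000154188, chromosome 8, 107249482 to 107498055, minus strand), which encodes a vessel-stabilising ligand of the receptor TIE2, fell at very low counts. It had 6 and 1 counts in shGREM1, against 20 and 22 in shControl. The groups did not overlap, and shGREM1-2 held a single read. The log2 fold change was -2.62 ± 0.71 (SE; edgeR adjusted p = 0.0369), and the ratio of summed counts was 0.158 (exact 95% interval 0.0601 to 0.356). ANGPT1 also reached the count filter through shControl alone, so this p-value and call are a description. Without shGREM1-1 the log2 fold change was -4.29, and without shGREM1-2 it was -1.87 and did not pass (edgeR adjusted p = 0.154). It did not pass without shControl-1 (0.188) or shControl-2 (0.196) either. ANGPTL4 (ENSG00000167772, chromosome 19, 8363289 to 8374373, plus strand), whose product inhibits lipoprotein lipase and is induced by PPARs and HIFs, had 13 and 16 counts in shGREM1, against 14 and 20 in shControl. The groups overlapped, and the log2 fold change of -0.30 had a 95% interval from -1.42 to 0.82, which includes a 2-fold fall and no change (edgeR adjusted p = 0.795).

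FGF2 (ENSG00000138685, chromosome 4, 122826708 to 122898236, plus strand), a heparin-binding mitogen exported without a signal peptide, had 38.3 and 35.3 CPM in shGREM1, against 41.5 and 47.6 CPM in shControl. Both shGREM1 libraries lay below both shControl libraries. The log2 fold change was -0.28 ± 0.13 (SE) with an unadjusted p = 0.0443, and it did not pass over all genes (edgeR adjusted p = 0.20). FGF2 shares 804 exon bases with NUDT6 on the opposite strand, which had 126 and 121 counts in shGREM1 and 71 and 112 in shControl. No strand setting is known for the counting, so reads in that stretch may count for either gene. No other member shared more than 188 exon bases with an annotated gene, and the sharing partners of VEGFA and ESM1 had 0 counts.

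Ordered by mean TPM over the 4 libraries, the members ran VEGFB, VEGFC, VEGFA, FGF2, ESM1, PGF, ANGPTL4, ANGPT1, FLT1 and KDR. This order depends on the union of exons used as length, 14431 bases for VEGFA against 2420 for VEGFC. By mean CPM, VEGFA (134 CPM) lay above VEGFC (25.9 CPM). In shControl the libraries of FGF2 (21.5 and 25.2 TPM) and ESM1 (24.8 and 27.3 TPM) overlapped, and in shGREM1 FGF2 (20.0 and 19.5 TPM) lay above ESM1 (11.1 and 4.83 TPM). PGF (7.83 and 7.60 TPM) fell between the ESM1 libraries in shGREM1. The last 4 genes averaged under 2 TPM in both groups.

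**Figure D3:**
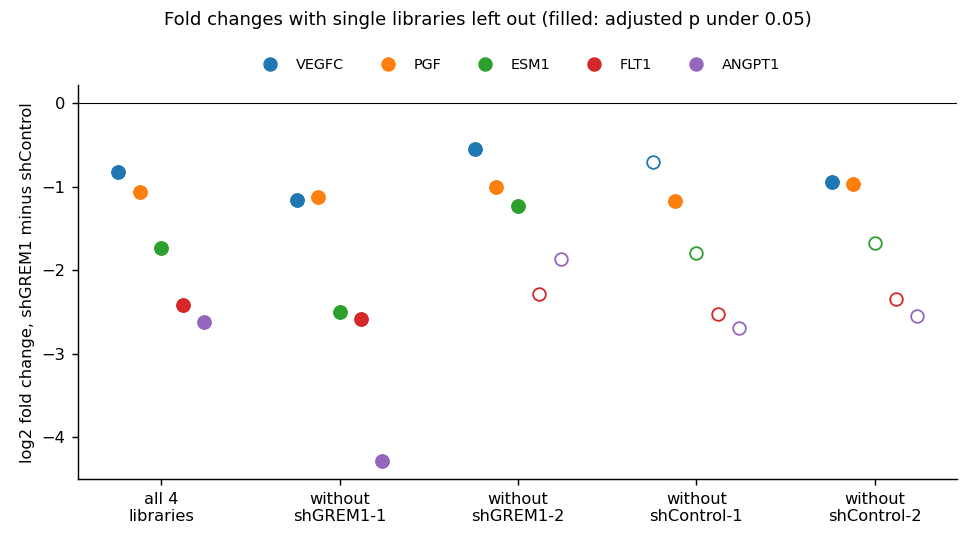
Log2 fold changes of the 5 members that fell, with all 4 libraries and with each library left out. Filled circles passed at an adjusted p under 0.05 and open circles did not. Where a library is left out, a filled circle is not evidence of a change, as 1 group then has no spread of its own. PGF ranges from -1.17 to -0.97, and ANGPT1 from -4.29 to -1.87.

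The spread between the shGREM1 libraries differed among the 5 members that fell. On the log2 scale, the ratio of shGREM1-2 over shGREM1-1 was -0.12 for PGF, -0.29 for FLT1, -0.61 for VEGFC, -1.27 for ESM1 and -2.56 for ANGPT1. The ANGPT1 ratio is 1 against 6 counts, with exact Poisson limits of 0.0253 to 5.57 and 2.20 to 13.1. The FLT1 ratio is 4 against 5 counts, with limits of 1.09 to 10.2 and 1.62 to 11.7. These limits overlap, so neither ratio stands apart from counting error. The ratio of shControl-2 over shControl-1 lay between -0.24 and 0.19 for all 5. Out of 10267 protein-coding genes averaging 10 CPM or more, those nearest to each member in log2 CPM centred over the 4 libraries (Euclidean distance) were found as a description. They were TSPAN11, PSTPIP2 and FAM198B for PGF (distances 0.0924, 0.123 and 0.148), with log2 fold changes of -1.06, -1.09 and -1.20. For VEGFC they were GALNT18, BDNF and LAYN (0.0605, 0.0702 and 0.116), and BDNF, a neurotrophin gene, had 19.0 and 12.1 CPM in shGREM1 against 28.5 and 25.6 CPM in shControl. For ESM1 they were BIRC3, PRSS35 and ID3 (0.234, 0.264 and 0.394). BIRC3, an inhibitor of apoptosis gene, was also nearest to ANGPT1 (0.227), with 21.6 and 8.77 CPM in shGREM1 against 55.4 and 61.2 CPM in shControl, and it did not pass (edgeR adjusted p = 0.173). MMP9 and TRAF1 followed for ANGPT1 (0.237 and 0.424), and PCDH7, HHIP and CYGB were nearest to FLT1 (0.298, 0.321 and 0.334). The patterns of ANGPT1 and FLT1 rest on few counts in each library. LAYN, PRSS35, ID3, MMP9 and TRAF1 did not pass either (edgeR adjusted p = 0.201, 0.133, 0.376, 0.254 and 0.135).

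Other genes of the VEGF and PDGF families moved in both directions. Of 10 listed receptors and relatives 9 were tested, NRP1, PDGFA and PDGFD fell, PDGFRA rose and 5 did not pass, with a list median log2 fold change of -0.34 beside 0.00 for all genes tested. NRP1 encodes neuropilin 1, a co-receptor that binds VEGFA and PGF. It had 52.2 and 55.2 CPM in shGREM1, against 86.9 and 104 CPM in shControl (log2 fold change -0.83 ± 0.12, SE; edgeR adjusted p = 0.00075). The PDGF ligand genes PDGFD (-0.90, edgeR adjusted p = 0.0298) and PDGFA (-0.57, 0.0476) were lower, and the receptor gene PDGFRA was higher, with 23.4 and 24.0 CPM in shGREM1 against 12.6 and 12.7 CPM in shControl (0.91, edgeR adjusted p = 0.00252). PDGFD did not pass without shControl-1 (edgeR adjusted p = 0.169) or shControl-2 (0.0686) or with DESeq2 (0.0602). PDGFA did not pass without shGREM1-1 (edgeR adjusted p = 0.0635) or shControl-2 (0.204), with upper-quartile (0.0562) or total count scaling (0.0664), or among genes of at least 5 CPM on average (0.0525). The numbers of falls and rises in the list changed in fits without single libraries, as did the number of all genes called.

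Of the other angiopoietins, TIE receptors and angiopoietin-like genes, 5 of 11 were tested, 1 fell and 0 rose (edgeR; list median -0.30). At an unadjusted p under 0.05 the counts were the same, as they were with DESeq2 and limma-voom. The fall was in ANGPT4, a further TIE2 ligand gene, with 1.53 and 1.31 CPM in shGREM1 against 5.83 and 5.70 CPM in shControl (log2 fold change -2.02 ± 0.32, SE; edgeR adjusted p = 0.00142). TEK, which encodes TIE2, had 2.26 and 1.62 CPM in shGREM1 and 2.07 and 1.75 CPM in shControl.

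Among 18 other secreted or cell-bound pro-angiogenic factors 13 were tested, and ADM and JAG1 fell while 0 rose (edgeR; list median -0.38). At an unadjusted p under 0.05, 6 were lower and 0 higher, and DESeq2 called 3 lower and 0 higher. JAG1, a membrane-bound Notch ligand gene, had 75.0 and 63.7 CPM in shGREM1, against 137 and 139 CPM in shControl (log2 fold change -0.995 ± 0.114, SE; edgeR adjusted p = 0.000106). ADM, which encodes the vasodilator adrenomedullin, had 3.90 and 6.84 CPM in shGREM1, against 11.7 and 10.2 CPM in shControl (log2 fold change -1.03, edgeR adjusted p = 0.0265). The most abundant genes of the list that did not pass were the matricellular genes CTGF (log2 fold change -0.50) and CYR61 (-0.44) and the midkine gene MDK (0.17). The number of falls in this list changed in fits without single libraries, as did the number of all genes called. ADM did not pass without shControl-1 (edgeR adjusted p = 0.136) or shGREM1-1 (0.0792).

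Of 24 HIF target genes, all of them tested, 5 fell and 0 rose (edgeR; list median -0.15), while VEGFA, also a HIF target, did not pass. At an unadjusted p under 0.05, 8 were lower and 0 higher, and DESeq2 and limma-voom each called 5 lower and 0 higher. The falls were in the glycolysis genes HK2 (log2 fold change -0.998), LDHA (-0.60) and PGK1 (-0.45), in the prolyl hydroxylase gene EGLN3 (-0.92) and in ADM. LDHA had 675 and 584 CPM in shGREM1, against 1018 and 896 CPM in shControl (edgeR adjusted p = 0.00564). The glucose transporter gene SLC2A1 (-0.02), DDIT4 (-0.04) and BNIP3L (0.04) did not pass. Without shControl-1, LDHA, PGK1 and EGLN3 did not pass, in a fit that also called fewer genes over the whole table. Of 12 HIF pathway regulators 11 were tested, EGLN3 fell and 0 rose. HIF1A, the HIF-1 alpha gene, had 362 and 343 CPM in shGREM1 and 348 and 415 CPM in shControl, and EPAS1, the HIF-2 alpha gene, had 93.0 and 157 CPM in shGREM1 against 206 and 253 CPM in shControl (log2 fold change -0.88, edgeR adjusted p = 0.201). The number of HIF regulators that fell was 2 with limma-voom. It also changed in fits without single libraries, as did the number of all genes called.

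**Figure D4:**
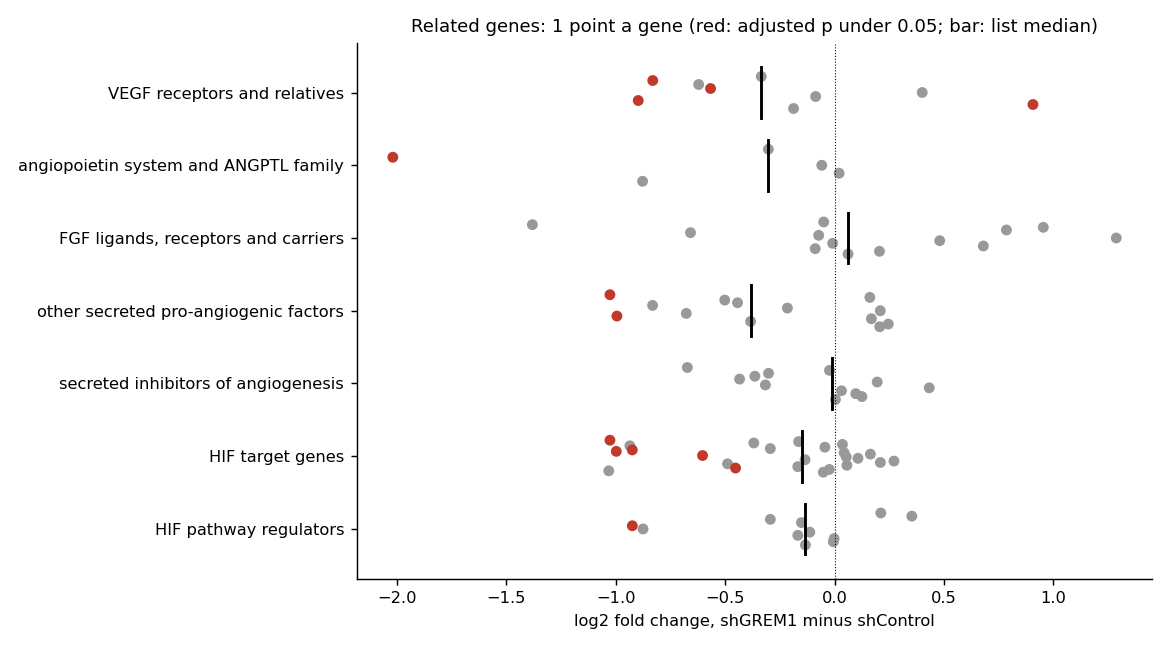
Log2 fold changes (shGREM1 minus shControl) of the tested genes of 7 related lists, 1 point a gene. Red points passed at an adjusted p under 0.05 and black bars mark list medians, which lie between -0.38 and 0.06. The only red point above 0 is PDGFRA, at 0.91.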

How the data were processed

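RNA-seq counts of 4 U2OS libraries were analysed. The authors deposited 1 table of raw read counts per gene, with no normalization. Per the submitters' processing notes, StringTie 1.3.3b, HISAT2 2.0.5 and a DESeq2 of unstated version were used, and the build is given as the mouse mm10. The rows are human genes, and the 10 members matched GENCODE 29 (GRCh38) in position and strand. How reads were counted, and with which strand setting, is not given in the sources used here. The abbreviated column names alone were matched to the labels: NC to shControl and SHG1 to shGREM1, with the final digit as replicate number. All 4 count columns were used.

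The main test was edgeR 4.0.16 (R 4.3.3): filterByExpr with a minimum count of 10 and total of 15, TMM scaling, and a robust quasi-likelihood fit on the group. P-values were adjusted by Benjamini-Hochberg over all 18442 kept genes, with a threshold of 0.05. Genes said to have risen or fallen passed it. Log2 fold changes are shGREM1 minus shControl, their SE is the fold change over the root of F, and the biological coefficient of variation was 11.4%. TPM used the deposited gene lengths, which equal the union of exons for the members.

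All 10 members are named. From each list of related genes, up to 6 that passed and up to 3 that did not were named by size of change and by level, and up to 3 genes nearest in pattern to each member that passed. FLT4, SP7, COL1A2, ALPL, EMCN, CLEC14A, CD68, HBB and NUDT6 fall outside this rule and were added after their values were seen. The members and lists were chosen with earlier results of these data known. Alternatives were other scalings, filters, DESeq2 1.42.0, limma-voom 3.58.1, no robust estimation, protein-coding genes only, a replicate block and leaving out each library. In fits without 1 library the single library left in a group is taken to vary as the other group does. A call gained or kept there is therefore not evidence of a change. The script was tested on simulated counts. The result of 1 gene list with an item withheld for evaluation is not reported here. Promoter sequences are from RefSeq, and the figures were drawn with matplotlib 3.10.9.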

Additional observations from a re-analysis of the deposited data

How the results depend on the processing

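No member was called higher under any of the 14 alternatives. The 5 members called lower became 3 with DESeq2, which gave no adjusted p for FLT1, ANGPT1 and ANGPTL4, and 2 with a mean CPM filter of 5, which removes those 3 genes and under which ESM1 did not pass. Without single libraries the number ran from 1 to 5, and that of all genes called from 648 to 2110. The replicate block, with 2374 genes called against 1418, left the same number of members called, 5, and changed no member's call. Pairing by number was not evident, as deviations from the group means correlated at -0.01 between libraries of 1 number. Taken over all genes tested, this value cannot exclude pairing in some of them. Of the members' fold changes under the alternatives, 108 kept their direction and side of the threshold, 11 lost the call and 1 reversed. The reversal was VEGFB, with log2 fold changes from -0.062 without shControl-2 to 0.0898 without shControl-1. Depth limits KDR, FLT1, ANGPT1 and ANGPTL4, with at most 25 counts in a library.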

Other observations

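Among genes that oppose angiogenesis and genes of the wider FGF pathway, 0 passed, where 7.69% of all genes tested passed by edgeR. At that share, 0 calls in lists this short do not set these genes apart. Of 15 listed secreted inhibitors 12 were tested, and 0 passed in either direction by edgeR, DESeq2 or limma-voom, with 1 lower and 0 higher at an unadjusted p under 0.05 (list median log2 fold change -0.01). THBS1, the thrombospondin 1 gene, differed between libraries of a group, with 6101 and 8803 counts in shGREM1 and 8976 and 4916 in shControl. TIMP3, a metalloproteinase inhibitor gene that also blocks VEGF binding to KDR, did not pass (0.12 on the log2 scale, edgeR adjusted p = 0.55). Of 16 FGF ligands, receptors and carriers other than FGF2, 13 were tested and 0 passed by the same 3 tools, with 2 higher and 2 lower at an unadjusted p under 0.05. FGFR1, the most abundant FGF receptor gene here by CPM, had 179 CPM in shGREM1 and 180.4 CPM in shControl.

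The endothelial guidance receptor gene ROBO4 had 30 and 19 counts in shGREM1, against 67 and 78 in shControl (log2 fold change -1.63, edgeR adjusted p = 0.0105).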
